A study of Mus musculus with 6 samples.

Results

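The enzymes described here modify drugs, hormones and reactive aldehydes so that they can be excreted or used, and they belong to 6 families. They were the genes of the expression table whose symbols begin with Ugt1a, Ugt2a, Ugt2b or Ugt3a, or with Sult, Fmo, Ces, Aldh or Akr and a digit. This symbol rule gave 66 of 19176 rows: 10 Ugt, 8 Sult, 4 Fmo, 10 Ces, 20 Aldh and 14 Akr genes. They were measured in renal cortex of 8-week-old male wild-type C57BL/6J mice after unilateral renal ischemia-reperfusion injury (UIRI), in which the left renal pedicle is clamped and then released. The UIRI group (3 libraries) received vehicle, and the UIRI + BA group (3 libraries) received BA at 1 mg/kg, by intraperitoneal injection each day for 14 days. The labels name BA as brucine A, and the methods of the study name it as bruceine A, a compound of the plant Brucea javanica. In both groups the right kidney was taken out on day 13 and the injured cortex was collected on day 14, so each animal lived on its injured kidney at the end. No sham group was analysed here, so the comparison holds only within injured kidneys.

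UDP-glucuronosyltransferases (Ugt) attach glucuronic acid, and cytosolic sulfotransferases (Sult) attach sulfate, to phenols, steroids and bile acids. Flavin-containing monooxygenases (Fmo) oxidize nitrogen and sulfur atoms of drugs and dietary amines, and carboxylesterases (Ces) split ester and amide bonds, including those of stored lipid. Aldehyde dehydrogenases (Aldh) turn aldehydes into acids, and aldo-keto reductases (Akr) turn aldehydes and ketones into alcohols. In kidney many of these enzymes sit in the proximal tubule, the segment that takes up and secretes organic acids, and tubule cells lose part of this equipment when they are injured.

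Promoter sequence is shown for 3 members whose values are described further on, because regulators of these families that were measured include Nfe2l2, which acts on antioxidant response elements, and the xenobiotic receptor gene Ahr. The sequences are the 250 bases before the transcription start in RefSeq (GRCm38.p6), written 5′ to 3′ on the strand of the gene. Capitals mark a match, on either strand, to the antioxidant response element core TGACNNNGC or to the AHR core TNGCGTG.
Sult1d1 (chr5:87569007-87569256, minus strand, AHR core on the other strand): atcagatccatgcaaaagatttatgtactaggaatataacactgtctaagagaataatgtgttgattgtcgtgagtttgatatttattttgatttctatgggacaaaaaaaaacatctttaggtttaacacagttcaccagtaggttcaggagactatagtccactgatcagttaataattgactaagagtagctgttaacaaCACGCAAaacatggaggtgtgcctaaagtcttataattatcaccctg
Aldh1a2 (chr9:71215539-71215788, plus strand, antioxidant response element core): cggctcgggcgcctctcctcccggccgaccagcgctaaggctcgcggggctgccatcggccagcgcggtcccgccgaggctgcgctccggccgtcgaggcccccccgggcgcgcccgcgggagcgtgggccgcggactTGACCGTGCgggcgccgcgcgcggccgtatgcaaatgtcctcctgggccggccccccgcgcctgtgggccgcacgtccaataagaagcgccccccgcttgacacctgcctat
Aldh9a1 (chr1:167349741-167349990, plus strand, antioxidant response element core, then AHR core on the other strand): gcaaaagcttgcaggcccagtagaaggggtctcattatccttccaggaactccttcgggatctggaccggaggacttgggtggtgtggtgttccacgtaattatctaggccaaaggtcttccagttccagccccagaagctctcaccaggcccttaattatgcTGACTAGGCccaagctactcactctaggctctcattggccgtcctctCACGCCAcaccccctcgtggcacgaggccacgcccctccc

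RefSeq held 58 promoters for 53 of the 66 members, beside 32851 promoters of all genes. The antioxidant response element core was in 3.45% of the member promoters, those of Aldh1a2 and Aldh9a1, and in 10.2% of all promoters. Its first base lay at -112 in Aldh1a2 and at -87 in Aldh9a1. The AHR core was in 6.90% against 4.10%, in Aldh18a1, Aldh3a2, Aldh9a1 and Sult1d1. Other motifs searched on both strands were the HNF4A motif CAAAGTCCA (0% against 0.384%) and the TATA box TATAAA (8.62% against 12.4%). These are matches of letters in a short window and say nothing of binding.

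The libraries were not alike in depth. Reads assigned to genes ranged from 16510720 to 20313529 in 5 libraries and reached 38124164 in UIRI replicate 3. In 39 of the 66 members the level of that library lay inside the range of the UIRI + BA libraries, against 19 for UIRI replicate 1 and 13 for UIRI replicate 2. It lay between UIRI replicates 1 and 2 in 14 members, of which 9 are also among the 39. The counts, and the members it bears on most, are therefore given with and without it. The library was singled out partly by the values of these same members. The fits without it are therefore not independent evidence of a difference. Where it lay nearer to the UIRI + BA libraries than the other UIRI libraries did, leaving it out must widen the difference. Values are normalized counts, that is, reads per gene divided by a size factor per library. Differences are log2 fold changes of UIRI + BA over UIRI, on the log2(value + 1) scale, from limma fitted to all 19176 rows, so a positive value means a higher level with BA. The study describes the 3 libraries of a group as independent biological replicates.

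Across the 6 families, 44 members were higher and 22 were lower in the UIRI + BA group, with a median log2 fold change of 0.19 beside -0.0053 for all genes. The lowest adjusted p of a member was 0.225, so 0 members passed 0.05 after adjustment, as did 0% of all genes. At an unadjusted p below 0.05, 23 members were higher (5.67% of all genes) and 4 were lower (4.61% of all genes), and 39 did not pass. The groups did not overlap for 16 higher members (7.45% of all genes) and 3 lower members (6.96% of all genes). The 16 were 7 Aldh genes, 3 Sult1 genes, 3 Fmo genes, Ugt1a7c, Ces2c and Akr1c19, and the 3 lower members were Aldh1a2, Aldh1a3 and Aldh1b1. The plot of all members gives each difference with its standard error.

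**Figure D1:**
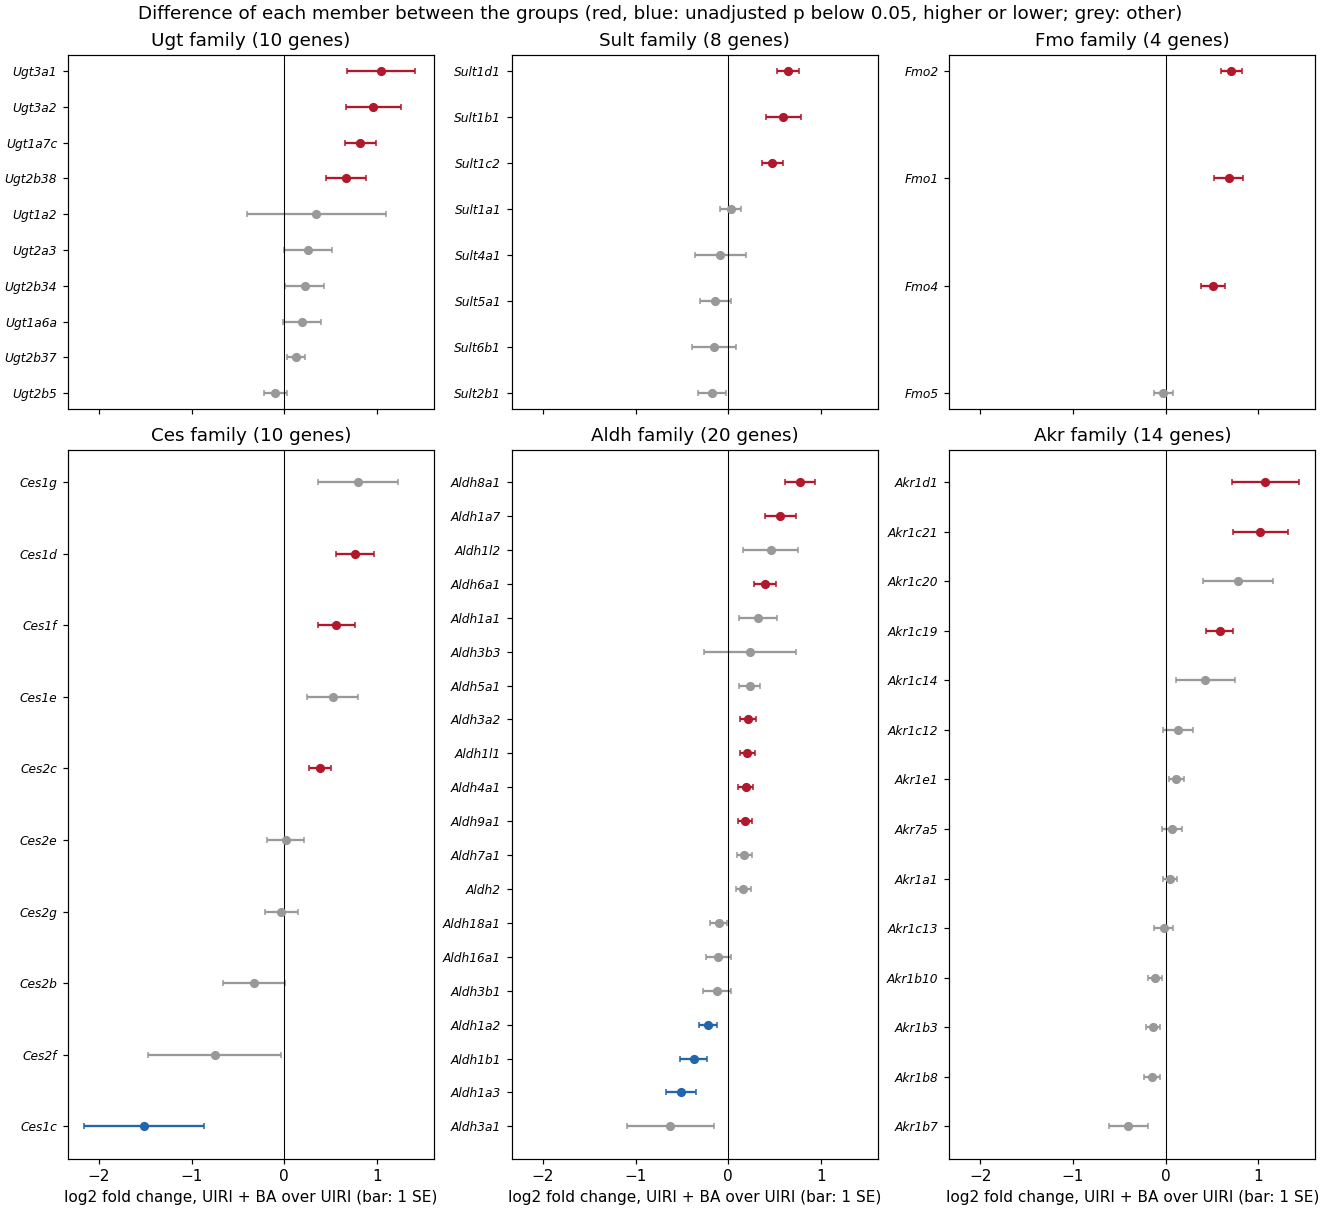
Each panel gives a family, each point the log2 fold change of a gene (x axis, UIRI + BA over UIRI, 3 libraries each) and each bar 1 standard error from limma. Red and blue mark genes with an unadjusted p below 0.05; they run from 1.07 for Akr1d1 down to -1.51 for the sparsely counted Ces1c, and 44 of the 66 points lie above 0.

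Other fits moved the count of calls. DESeq2 on the recovered reads, which gave an adjusted p for 55 members, called 8 higher (1.14% of the 14340 genes it tested) and 0 lower (0.349% of those genes): Fmo2, Sult1d1, Aldh8a1, Ugt1a7c, Fmo1, Sult1c2, Ces1d and Akr1c19. limma without UIRI replicate 3 called 17 higher (3.22% of all genes) and 0 lower (1.79% of all genes) at an adjusted p below 0.05, with a median log2 fold change of 0.24. Without UIRI replicate 1 the members at an unadjusted p below 0.05 came to 15 higher (2.61% of all genes) and 0 lower (1.61% of all genes). With any library other than UIRI replicate 3 left out, 0 members had an adjusted p below 0.05.

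Marker lists of several cell types also differed in this contrast. Over all genes, 5.67% were higher and 4.61% lower at an unadjusted p below 0.05. All 6 markers of the early proximal tubule were higher with BA, each at an unadjusted p below 0.05, and their summed normalized count ranged from 17174 to 27293 in the UIRI libraries and from 29200.0 to 33791 in the UIRI + BA libraries. The late segment had 7 of 7 markers higher, 6 of them at that threshold, with sums of 7078 to 9157 and 10229.8 to 14380.2. All 7 fibroblast markers (4 past the threshold, sums 89060.3 to 107227 and 65519 to 86819.8) and all 7 leukocyte markers (0 past it, sums 24083 to 32739.9 and 22379.6 to 26831) were lower by log2 fold change. Of the leukocyte markers Cd3e was close to 0, at -0.0097, with mean counts of 114 in UIRI and 117 in UIRI + BA. The 6 urothelium markers were lower as well, at sums of 119 to 524 and 30.1 to 320.3, with Upk2 at 0 in 2 UIRI + BA libraries and Upk3a at 0 in 1 of them. None of the 6 passed the unadjusted threshold. The 9 injured tubule markers were split, with 5 higher (3 past the unadjusted threshold: Havcr1, Krt20 and Vcam1) and 4 lower (2 past it: Lcn2 and Krt18). Of the further lists, 3 of 4 thick limb markers were higher (1 past the threshold), as were 4 of 5 of collecting duct (0), 4 of 7 of hepatocytes (0) and 3 of 4 Y-linked genes (1), with 0 past it in the other direction. The table held 2 of 6 adrenal cortex markers, 1 higher and 1 lower (1 past the threshold, lower), and 0 of 5 adipocyte markers. No marker passed an adjusted p of 0.05. UIRI replicate 3 also stood apart from UIRI replicates 1 and 2 in several of these sums. Its early proximal tubule sum was 27293 (17174 and 20253 in the others), and its late segment sum was 9157 (7078 and 7333). The leukocyte sum was 24083 (32740 and 31353), and the urothelium sum was 524 (126 and 119). For fibroblast markers it lay between them, at 96857. The part of these cell types in the members' values was not tested. In bulk cortex, fewer cells of a type and less RNA per cell cannot be told apart.

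Among the glucuronosyltransferases, 9 of 10 genes were higher with BA, and the family median was 0.30. At an unadjusted p below 0.05, 4 of them were higher (5.67% of all genes). The Ugt3 pair had the highest log2 fold changes. Ugt3a2, which uses sugars other than glucuronic acid, had normalized counts of 673, 661 and 1549 in the UIRI libraries and 1699, 1415 and 2121 in the UIRI + BA libraries (log2 fold change 0.96 ± 0.30 (SE), adjusted p = 0.364). Its neighbour Ugt3a1, an N-acetylglucosamine transferase, had 30.6, 27.0 and 58.1 against 67.6, 52.8 and 123 (log2 fold change 1.04 ± 0.36 (SE), adjusted p = 0.418). In both genes UIRI replicates 1 and 2 lay together and UIRI replicate 3 fell among the BA libraries, so the groups overlapped. Without that library the log2 fold changes were 1.37 and 1.37, with adjusted p = 0.00443 and 0.0491. Over the fits that each left out 1 library, the lowest log2 fold changes were 0.75 for Ugt3a2 and 0.70 for Ugt3a1.

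The Ugt2 genes, which lie together on chromosome 5, were more mixed. Ugt2b37 was the most abundant of the family, at a mean of 2594 normalized counts per kilobase of exon. It had 4429, 4835 and 4800.1 in the UIRI libraries and 4496, 5399.8 and 5516 in the BA libraries (log2 fold change 0.13 ± 0.0940 (SE), adjusted p = 0.640), and its groups overlapped. Ugt2b38, the next by level per kilobase (1334), had 1588, 1517 and 2899 against 3228, 2808 and 3092 (log2 fold change 0.67 ± 0.21 (SE), adjusted p = 0.377). UIRI replicate 3 again sat with the BA libraries, and without it the difference was 0.97 (adjusted p = 0.00193). Over the fits that each left out 1 library, the lowest log2 fold change of Ugt2b38 was 0.50. Ugt2b5, the only member of the family that was lower, had 623, 799 and 643 against 589, 739 and 604 (log2 fold change -0.0944 ± 0.13 (SE), adjusted p = 0.796), with overlap. Ugt2b5 and Ugt2b38 shared 19.5% and 19.2% of their windows of 150 coding-transcript bases with each other, so reads could be split between them. Ugt2a3 and Ugt2b34 had log2 fold changes of 0.26 ± 0.26 and 0.22 ± 0.21 (SE) with overlap.

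Of the Ugt1 genes, which share their last exons at a common locus, Ugt1a7c had 152, 130.5 and 199 in the UIRI libraries and 294, 247 and 303 in the BA libraries (log2 fold change 0.82 ± 0.17 (SE), adjusted p = 0.225). All BA libraries were above all UIRI libraries, and DESeq2 gave adjusted p = 0.00743. As 68.3% of its windows are shared with other genes of the locus, and the assignment of reads from them was not examined, the value cannot be given to that first exon alone. Ugt1a6a, whose windows are all shared, had 34.0, 46.1 and 43.8 against 42.6, 49.5 and 49.0, and Ugt1a2, at 3.40, 0 and 5.48 against 5.01, 2.15 and 2.09, rests on a few reads.

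The sulfotransferases parted by subfamily. All 4 Sult1 genes had a positive log2 fold change. Of these, 3 passed an unadjusted p of 0.05 (5.67% of all genes) and their groups did not overlap (7.45% of all genes). The other 4 (Sult2b1, Sult4a1, Sult5a1 and Sult6b1) had negative values between -0.18 and -0.085 with overlapping groups. The difference between the subfamilies was not tested. Sult1d1, a phenol and catecholamine sulfotransferase strongly expressed in mouse kidney and the gene whose promoter holds the AHR core shown above, was the most abundant, at 2287 normalized counts per kilobase. It had 3864, 4369.7 and 4951 in the UIRI libraries and 6764, 6014 and 7779 in the BA libraries, a 1.56-fold higher mean (log2 fold change 0.64 ± 0.12 (SE), adjusted p = 0.225). Every BA library was above every UIRI library, and DESeq2 gave adjusted p = 7.65e-04. Sult1c2 had 1297, 1365 and 1647 against 1795, 1969 and 2222 (log2 fold change 0.48 ± 0.11 (SE), adjusted p = 0.260; DESeq2 adjusted p = 0.0262). Sult1b1, which sulfates thyroid hormones and phenols, was less abundant (19.7 per kilobase), with 36.3, 48.4 and 46.0 against 71.4, 66.8 and 59.5 (log2 fold change 0.59 ± 0.19 (SE), adjusted p = 0.380). In neither gene did the groups overlap. By contrast Sult1a1, the general phenol sulfotransferase, had 944, 945 and 742 against 814, 948 and 903 (log2 fold change 0.0250 ± 0.11 (SE), adjusted p = 0.946), and its libraries were interleaved. Sult2b1, a cholesterol sulfotransferase, had 90.6, 87.7 and 78.9 against 71.4, 75.4 and 80.3 (log2 fold change -0.18 ± 0.15 (SE), adjusted p = 0.686), with 1 BA library above the lowest UIRI library.

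**Figure D2:**
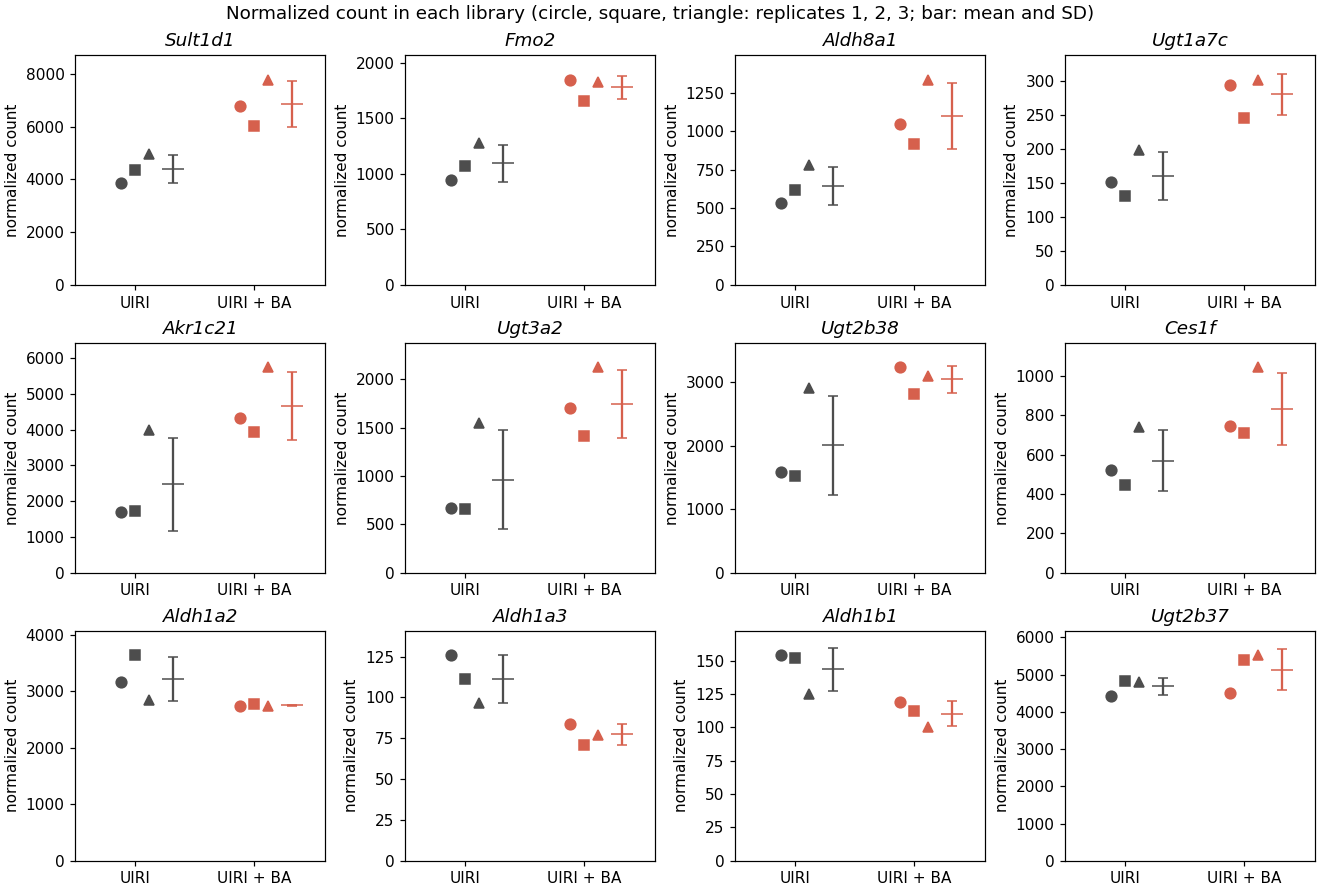
Each panel shows the normalized count (y axis, from 0) of a gene in the 3 UIRI and the 3 UIRI + BA libraries, with the mean and SD beside them. In Sult1d1, Fmo2, Aldh8a1 and Ugt1a7c the groups stand apart; in Akr1c21, Ugt3a2, Ugt2b38 and Ces1f the triangle of UIRI replicate 3 reaches the level of the BA libraries; Aldh1a2, Aldh1a3 and Aldh1b1 are lower with BA, and Ugt2b37 overlaps.

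Of the 4 flavin monooxygenases, the 3 that lie together on chromosome 1 were higher with BA and the one on chromosome 3 was not. Fmo2 had 947, 1067 and 1276 in the UIRI libraries and 1849, 1659.6 and 1826 in the BA libraries (log2 fold change 0.71 ± 0.11 (SE), adjusted p = 0.225), means of 1097 ± 166 and 1778 ± 103 (SD, n = 3). DESeq2 gave a log2 fold change of 0.69 and adjusted p = 1.43e-04. Fmo1, the main renal form in mice and the most abundant per kilobase (383), had 1447, 1846 and 2341 against 2992, 2687 and 3188 (log2 fold change 0.68 ± 0.16 (SE), adjusted p = 0.253; DESeq2 adjusted p = 0.00826). Fmo4 had 289, 373 and 377 against 471, 458 and 544 (log2 fold change 0.51 ± 0.13 (SE), adjusted p = 0.291). For all 3 genes the lowest BA library was above the highest UIRI library, as it was for 7.45% of all genes. Fmo5, an atypical member that inserts oxygen into carbonyl compounds, had 561, 564 and 548 against 506, 510.5 and 634 (log2 fold change -0.0261 ± 0.11 (SE), adjusted p = 0.941), so its UIRI values lay within those of the BA group. Summed over the family, the normalized count was 3879 ± 649.8 in UIRI and 5775 ± 440.2 in UIRI + BA (SD, n = 3).

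The carboxylesterase genes lie on chromosome 8, and 6 of the 10 were higher with BA, with a family median of 0.20. At an unadjusted p below 0.05, 3 were higher (5.67% of all genes) and 1 was lower (4.61% of all genes). Ces1f, the most abundant per kilobase (213), had 522, 443 and 739.9 in the UIRI libraries and 744, 708 and 1041 in the BA libraries (log2 fold change 0.56 ± 0.20 (SE), adjusted p = 0.426). Ces1d, a hydrolase of stored triacylglycerol, had 276, 294 and 467 against 638, 458 and 639.7 (log2 fold change 0.76 ± 0.21 (SE), adjusted p = 0.308; DESeq2 adjusted p = 0.0358). In both, UIRI replicate 3 lay above the lowest BA library, and without it the log2 fold changes were 0.77 and 1.00, with adjusted p = 0.0334 and 0.0125. Ces1e passed the adjusted threshold in the same fit (log2 fold change 0.86, adjusted p = 0.0339) and not with all libraries (log2 fold change 0.52 ± 0.27 (SE), adjusted p = 0.538). Over the fits that each left out 1 library, the lowest log2 fold changes were 0.39 for Ces1f, 0.62 for Ces1d and 0.26 for Ces1e. Ces2c had 274, 269 and 271 in the UIRI libraries, all within a few counts, and 307, 359.7 and 403 in the BA libraries (log2 fold change 0.38 ± 0.12 (SE), adjusted p = 0.360), and the groups did not overlap. The remaining carboxylesterases were sparse. Ces1g had 6.80, 5.62 and 18.6 against 17.5, 17.2 and 14.6 (log2 fold change 0.79 ± 0.43 (SE), adjusted p = 0.550). Ces1c, the esterase secreted into mouse plasma, was the member with the most negative value, 15.9, 14.6 and 4.38 against 2.51, 7.54 and 1.04 (log2 fold change -1.51 ± 0.64 (SE), adjusted p = 0.480), which rests on few reads per library and overlapping groups. The 4 remaining Ces2 genes (Ces2b, Ces2e, Ces2f and Ces2g) had log2 fold changes between -0.75 and 0.0163 with overlap.

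The aldehyde dehydrogenases are given by role. All 6 genes of amino acid and carnitine metabolism had a positive log2 fold change. Of these, 4 passed an unadjusted p of 0.05 (5.67% of all genes) without overlap (7.45% of all genes). The summed normalized count of the 6 was 9178 ± 864.2 in UIRI and 11286 ± 677.5 in UIRI + BA (SD, n = 3). Aldh8a1, which oxidizes an intermediate of tryptophan breakdown, had 534, 616 and 783 against 1049.8, 919 and 1338 (log2 fold change 0.77 ± 0.17 (SE), adjusted p = 0.225; DESeq2 adjusted p = 0.00310). Aldh6a1, the methylmalonate semialdehyde dehydrogenase of valine and pyrimidine breakdown, had 2619, 2708 and 3442 against 3731, 3492 and 4248 (log2 fold change 0.39 ± 0.12 (SE), adjusted p = 0.354). In both genes every BA library was above every UIRI library. Over the fits that each left out 1 library, the lowest log2 fold changes were 0.63 for Aldh8a1 and 0.32 for Aldh6a1. Of these fits, only the limma fit without UIRI replicate 3 gave both an adjusted p below 0.05 (0.0147 and 0.0192).

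The differences in the other genes of that role were smaller. Aldh9a1, which acts in carnitine synthesis and whose promoter is shown above, had 2141, 1987 and 2101 in the UIRI libraries and 2209, 2424 and 2419 in the BA libraries (log2 fold change 0.18 ± 0.0746 (SE), adjusted p = 0.472). Aldh4a1, of proline breakdown, had 1407, 1323 and 1517 against 1629, 1652 and 1556 (log2 fold change 0.19 ± 0.0788 (SE), adjusted p = 0.472), and 40.2% of its windows are shared with Gm21969, a gene model that overlaps it. Neither gene's groups overlapped, although the shifts were about 1.13-fold and 1.14-fold in the mean. Aldh7a1, of lysine breakdown, and Aldh5a1, of the breakdown of the transmitter GABA, had log2 fold changes of 0.17 ± 0.0835 and 0.23 ± 0.12 (SE) with overlap. Aldh1l1, the cytosolic formyltetrahydrofolate dehydrogenase, had 1599, 1643 and 1823 against 1908, 1929 and 1998 (log2 fold change 0.21 ± 0.0773 (SE), adjusted p = 0.442), again with no overlap.

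The 4 Aldh1a genes, a group that includes retinal dehydrogenases that make retinoic acid, did not share a direction. The grouping follows the symbols, and activity toward retinal was not measured for any of them. Aldh1a2, the most abundant aldehyde dehydrogenase per kilobase (1318) and the gene whose promoter holds the antioxidant response element core shown above, had 3168, 3633 and 2850.5 in the UIRI libraries and 2736, 2767 and 2743 in the BA libraries (log2 fold change -0.22 ± 0.0933 (SE), adjusted p = 0.477). Aldh1a3 had 126, 111 and 96.4 against 83.9, 71.1 and 77.2 (log2 fold change -0.51 ± 0.16 (SE), adjusted p = 0.368). In both genes all BA libraries were below all UIRI libraries, for Aldh1a2 by a small margin under UIRI replicate 3. Without that library the log2 fold changes were -0.30 and -0.61, with adjusted p = 0.0527 and 0.0731. Without UIRI replicate 2 the Aldh1a2 value shrank to -0.13 ± 0.0891 (SE). Over the fits that each left out 1 library, Aldh1a2 passed an unadjusted p of 0.05 in 1 and Aldh1a3 in 5. Aldh1a7, a close relative of Aldh1a1, was higher, with 108, 88.9 and 96.4 against 122, 140.0 and 175 (log2 fold change 0.56 ± 0.17 (SE), adjusted p = 0.354) and no overlap. Aldh1a1 itself had 172, 169.8 and 165 against 149, 272 and 233 (log2 fold change 0.32 ± 0.20 (SE), adjusted p = 0.595), where the UIRI values were close together and the BA values spread around them.

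Mitochondrial enzymes for acetaldehyde gave values of opposite sign. Aldh2, the main one and second in the family by level per kilobase (767), had 3609, 3829 and 3682 in the UIRI libraries and 3876, 4023 and 4577 in the BA libraries, higher in each BA library but short of the unadjusted threshold (log2 fold change 0.16 ± 0.0824 (SE), adjusted p = 0.528). Aldh1b1 had 154, 152 and 125 against 119, 112 and 100.2 (log2 fold change -0.37 ± 0.15 (SE), adjusted p = 0.450) and was lower in each BA library. Aldh3a2, the fatty aldehyde dehydrogenase, had 1723, 1841 and 2007 against 2191, 1984 and 2287 (log2 fold change 0.21 ± 0.0877 (SE), adjusted p = 0.466), with overlap. The rest of the family (Aldh1l2, Aldh3a1, Aldh3b1, Aldh3b3, Aldh16a1 and Aldh18a1) had log2 fold changes between -0.62 and 0.46, none past the unadjusted threshold.

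Among the 14 aldo-keto reductases, 9 were higher and 5 lower, and a difference between subfamilies was not tested. The Akr1c hydroxysteroid dehydrogenases had 5 of 6 genes higher, 2 of them at an unadjusted p below 0.05 (5.67% of all genes). Their summed normalized count was 3494 ± 1430.3 in UIRI and 5961 ± 994.0 in UIRI + BA (SD, n = 3). Most of that sum was Akr1c21, a steroid-oxidizing enzyme abundant in mouse kidney, with 1709.6, 1728 and 3978 against 4319, 3945 and 5738 (log2 fold change 1.02 ± 0.30 (SE), adjusted p = 0.340). Its value in UIRI replicate 3 was 2.31 times the mean of the other UIRI libraries and just above the lowest BA library, and without it the log2 fold change was 1.42 (adjusted p = 0.00369). Without UIRI replicate 1 it was 0.81, and without UIRI replicate 2 it was 0.82 (limma adjusted p = 0.9995 and 0.635). Akr1c19 had 408, 381 and 547 against 759, 618 and 607 (log2 fold change 0.58 ± 0.15 (SE), adjusted p = 0.291; DESeq2 adjusted p = 0.0457) with no overlap. Akr1d1, the beta-reductase of steroid and bile acid metabolism, had the highest log2 fold change of all members but a low level, 18.1, 20.2 and 46.5 against 50.1, 45.2 and 75.1 (log2 fold change 1.07 ± 0.36 (SE), adjusted p = 0.400), and its groups overlapped. Without UIRI replicate 3 its log2 fold change was 1.49 (adjusted p = 0.0258). Leaving out UIRI replicate 1 or 2 instead gave 0.83 and 0.90 (limma adjusted p = 0.9995 and 0.731). Akr1c12, Akr1c13, Akr1c14 and Akr1c20 lay between -0.0232 and 0.78, and Akr1e1 and Akr7a5 at 0.11 and 0.0690, all with overlap.

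All 4 Akr1b genes, the aldose reductase group that reduces glucose and lipid aldehydes, had negative values between -0.41 and -0.12, none at an unadjusted p below 0.05. Akr1b8, the most abundant of them per kilobase (935), had 1473, 1495 and 1446 in the UIRI libraries and 1185, 1345 and 1465 in the BA libraries (log2 fold change -0.15 ± 0.0899 (SE), adjusted p = 0.577), and Akr1b7 had 157, 159.7 and 102 against 83.9, 119.5 and 109.6 (log2 fold change -0.41 ± 0.21 (SE), adjusted p = 0.536). Both overlapped, as did Akr1b10, with 1125, 1139 and 1043 against 993, 985 and 1067 (log2 fold change -0.12 ± 0.0783 (SE), adjusted p = 0.610). Aldose reductase itself, Akr1b3, had 1691, 1635 and 1530.1 against 1419, 1447 and 1553 (log2 fold change -0.14 ± 0.0770 (SE), adjusted p = 0.561), and 43.4% of its windows are shared with other gene models (3 in all). Akr1a1, the aldehyde reductase that leads from glucuronic acid to vitamin C in mice, was the most abundant of all 66 members per kilobase (4974). It had 13539, 13071 and 13768 against 13176, 13986 and 14533 (log2 fold change 0.0455 ± 0.0783 (SE), adjusted p = 0.845), so the groups overlapped.

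**Figure D3:**
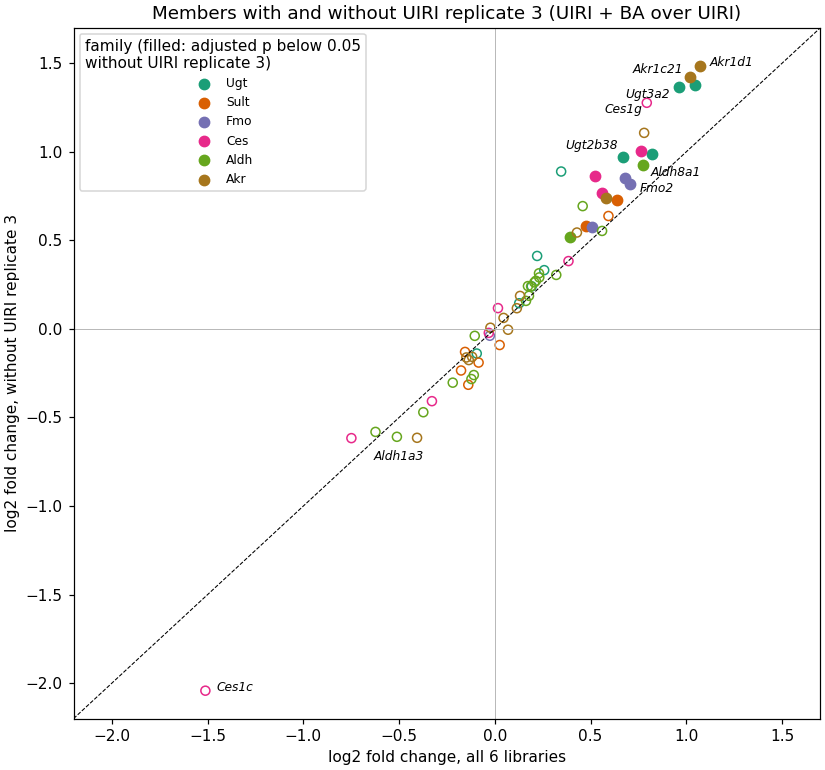
Each point is a member, with the log2 fold change from all 6 libraries on the x axis and that from 5 libraries, without UIRI replicate 3, on the y axis; the dashed line marks equal values and filled points had an adjusted p below 0.05 in the second fit. The 17 filled points all lie above 0 and above the dashed line, for example Akr1c21 at 1.02 and 1.42.

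The genes that supply or surround these reactions were read from a list of 59, of which 56 were in the table. Of these, 35 were higher and 21 lower, with a median of 0.055 beside -0.0053 for all genes. At an unadjusted p below 0.05, 16 were higher (5.67% of all genes) and 5 lower (4.61% of all genes), and 0 passed an adjusted p of 0.05. Among the 9 genes of cofactor supply, 4 were higher at the unadjusted threshold (5.67% of all genes) without overlap (7.45% of all genes). Papss2, which makes the sulfate donor PAPS, had 1458, 1407 and 1740.4 in the UIRI libraries and 1923, 1876 and 1983 in the BA libraries (log2 fold change 0.33 ± 0.0925 (SE), adjusted p = 0.312). Bpnt1, which clears the spent donor, had 1381, 1332 and 1658 against 1751, 1840.5 and 1865 (log2 fold change 0.33 ± 0.0946 (SE), adjusted p = 0.340). Slc35d1, the carrier of UDP-glucuronic acid into the endoplasmic reticulum, had 692, 727 and 854 against 971, 879 and 999 (log2 fold change 0.33 ± 0.10 (SE), adjusted p = 0.362), and Ugp2, which makes UDP-glucose, had 2330.4, 2379 and 2663 against 2774, 2731 and 3100.2 (log2 fold change 0.22 ± 0.0850 (SE), adjusted p = 0.448). The next enzyme, Ugdh, which makes UDP-glucuronic acid, had a log2 fold change of -0.0546 ± 0.0931 (SE), and Papss1, the other PAPS synthase, had 1771, 1576 and 1733 against 1582, 1387 and 1462 (log2 fold change -0.20 ± 0.0833 (SE), adjusted p = 0.474), lower with overlap.

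Other reactions of the list followed both directions. Glyat, which conjugates acids to glycine, had 2592, 2861 and 3334 in the UIRI libraries and 4213, 3935 and 4947 in the BA libraries (log2 fold change 0.58 ± 0.12 (SE), adjusted p = 0.225), and Aadac, an amide and ester hydrolase, had 896, 1061 and 1339.5 against 1697, 1555 and 1905 (log2 fold change 0.66 ± 0.14 (SE), adjusted p = 0.225). Sord, the sorbitol dehydrogenase that works after aldose reductase, had 2716, 2794 and 4415 against 5324, 4563 and 5404 (log2 fold change 0.66 ± 0.17 (SE), adjusted p = 0.291), and Ephx2, the soluble epoxide hydrolase, had 2342, 2586 and 2481 against 2597, 2979.9 and 3809 (log2 fold change 0.32 ± 0.13 (SE), adjusted p = 0.455). Each of these 4 was higher in every BA library than in any UIRI library. Lower at the unadjusted threshold without overlap were Cbr3, a carbonyl reductase, with 222, 209 and 126 against 86.4, 115 and 115 (log2 fold change -0.78 ± 0.23 (SE), adjusted p = 0.340), and Nnmt, which methylates nicotinamide, with 475, 377 and 325 against 253, 276 and 317 (log2 fold change -0.46 ± 0.15 (SE), adjusted p = 0.385). Ephx1, the microsomal epoxide hydrolase, was also lower without overlap but did not pass that threshold (log2 fold change -0.11 ± 0.0687 (SE), adjusted p = 0.602).

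Regulators of these families are shown in the plot of pathway genes by library. Hnf4a, a nuclear receptor of proximal tubule and liver, had 3052, 3653 and 3797 in the UIRI libraries and 5096, 4819 and 5429 in the BA libraries (log2 fold change 0.55 ± 0.0972 (SE), adjusted p = 0.225). It was higher in every BA library than in any UIRI library. Nfe2l2, which acts on antioxidant response elements, had 5058, 4682 and 5681 against 5139, 4998 and 5070.3 (log2 fold change -0.0158 ± 0.0850 (SE), adjusted p = 0.955). Its partner Keap1 had 919, 950.4 and 800.1 against 794, 813 and 823 (log2 fold change -0.13 ± 0.0884 (SE), adjusted p = 0.613). The xenobiotic receptor Ahr had 673, 583 and 869 against 590.0, 587 and 722 (log2 fold change -0.15 ± 0.15 (SE), adjusted p = 0.727). The groups overlapped for all 3.

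**Figure D4:**
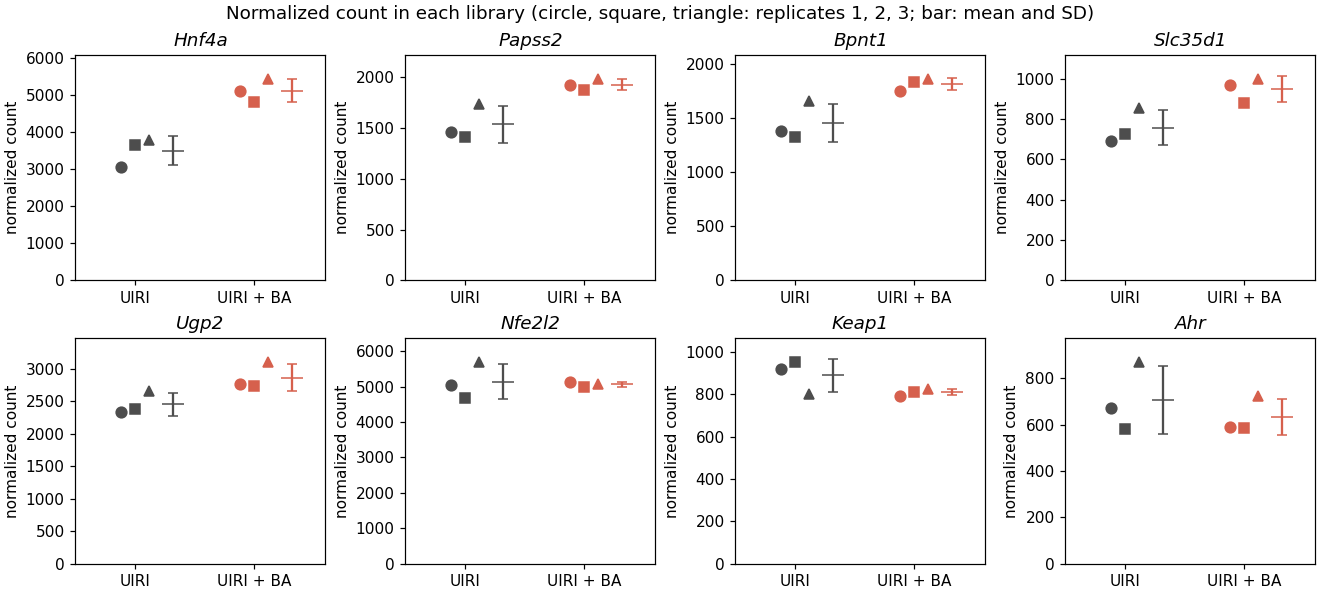
Each panel gives the normalized count (y axis, from 0) of a regulator or cofactor gene in the 3 UIRI and the 3 UIRI + BA libraries, with mean and SD. Hnf4a, Papss2, Bpnt1, Slc35d1 and Ugp2 are higher in each BA library than in any UIRI library, whereas Nfe2l2, Keap1 and Ahr overlap.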

How the data were processed

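The study made poly(A), strand-specific libraries from renal cortex, 3 per group. Alignment by the authors used HISAT2 2.0.5, FeatureCounts gave counts per gene, and DESeq2 1.20.0 was their test; the genome build and annotation are not given in the sources used here. The deposited signal of a gene in a library is its count over that library's size factor: multiplied back, 100% of values were whole reads to within 0.01 reads. The table also holds the authors' fold changes, p-values and test statistics, and further tables hold their GO and KEGG enrichment; none of these were used. No column of values per library was left unused (0). Reads on genes are given in the results and limit the precision of sparse genes. Libraries of a group also differed by more than the sampling of reads would give, with a chi-square per degree of freedom of 5.17 to 29.9 over the pairs.

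All 19176 rows were tested with limma 3.58.1 (R 4.3.3) on log2(value + 1), with an intensity trend and Benjamini-Hochberg adjustment, two-sided. The alternatives were DESeq2 1.42.0 and edgeR 4.0.16 (quasi-likelihood) on those reads, quantile and upper quartile scaling, a minimum of 1 in all libraries, 0.1 as the pseudocount, a replicate block, and leaving out each library. An exact permutation test of 3 against 3 cannot go below p = 0.1. The fits were also run on simulated counts, with larger differences than most members had and no library set apart. That run does not show how well they find differences of the size seen here.

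The members, lists and motifs were chosen with earlier results of these data known. Genes named were those with an unadjusted p below 0.05 and no overlap, the 3 most abundant per kilobase in each family, and the largest differences in each direction in a family among genes with a mean of at least 10 in either group; pathway genes followed the first of these, of which 1 is not reported here. Aldh3a2, Aldh5a1, Aldh7a1, Aldh1a1, Akr1b3, Akr1b10, Ces1e, Ugt1a6a, Ugt1a2, further members given by their range, Papss1, Ugdh, Ephx1, the injured tubule and urothelium markers, Nfe2l2, Keap1, Ahr and the genes in the closing section were named after their values were seen. Lengths, chromosomes and shared windows came from GENCODE M21 (GRCm38), matched by symbol for all 66 members, and promoters from RefSeq, with 13 members without an entry.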

Additional observations from a re-analysis of the deposited data

How the results depend on the processing

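The count of members at an adjusted p below 0.05 was 0 in the fit reported and 8 with DESeq2, and it ranged from 0 to 17 when a library was left out, with 17 reached without UIRI replicate 3. Over all genes it was 0, 6 with the replicate block, 213 with DESeq2 and 0 to 962 with a library left out. No pairing by replicate number was assumed. The correlation of deviations was -0.240, 0.304 and 0.155 between libraries of the same number. Between libraries of unlike numbers it ran from -0.413 to 0.235. The replicate block left 22 members higher and 4 lower at an unadjusted p below 0.05. Leaving out a library gave 15 to 30 members higher and 0 to 9 lower: 15 and 0 without UIRI replicate 1, 1 lower without UIRI replicate 2, 30 and 9 without UIRI replicate 3, 2 lower without UIRI + BA replicate 1 or 2. DESeq2 gave 2 lower. Over all genes, 1971 had an unadjusted p below 0.05 in the fit reported, in either direction. The number was 2106 with the replicate block and 1511 with DESeq2. It was 808, 1339 and 4838 without UIRI replicates 1, 2 and 3, and 1270 to 1860 without a UIRI + BA library. The member counts thus moved along with the count over all genes.

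Of the 6 family medians, that of Sult changed sign: it was -0.030 with all libraries, ranged from -0.11 to 0.13 with a library left out, and was 0.028, 0.13, 0.083 and 0.024 without UIRI replicate 1, UIRI replicate 2, UIRI + BA replicate 1 and UIRI + BA replicate 3. The Ugt median, 0.30 as reported, ranged from 0.31 to 0.65 with a library left out (highest without UIRI replicate 3). It was 0.23 with DESeq2, 0.25 with edgeR, 0.26 with at least 1 in every library and 0.47 with 0.1 as the pseudocount. The Fmo median ranged from 0.44 (without UIRI replicate 1) to 0.70. The Ces median, 0.20 as reported, ranged from 0.12 (without UIRI replicate 1) to 0.31 (without UIRI + BA replicate 1), with 0.13 without UIRI + BA replicate 3. The Akr median, 0.092 as reported, ranged from 0.033 (without UIRI + BA replicate 3) to 0.11, and the Aldh median from 0.15 to 0.24. The Ces median was 0.38 with at least 1 in every library and 0.40 with edgeR, which both test fewer genes. Of 43 named members, 3 changed sign: Fmo5 (-0.13 to 0.030, with 0.024 without UIRI + BA replicate 2), Sult1a1 (-0.091 to 0.086, with -0.023 without UIRI + BA replicate 2) and Ugt2b5 (-0.20 to 0.017). The cause was not tested. Of 558 values of these members under 13 alternatives, 528 kept their direction and their side of the adjusted threshold and 25 passed it newly. edgeR called 0 members at an adjusted p below 0.05 and 26 at an unadjusted one, beside 1703 of all genes at the unadjusted one. The 5 members with a mean under 10 were limited by depth.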

Other observations

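Some list genes with overlapping groups had values as far apart as the members. Rdh16, a retinol and steroid dehydrogenase, had 199, 193 and 384 in the UIRI libraries and 497, 382 and 445 in the BA libraries (limma log2 fold change 0.83 ± 0.24, adjusted p = 0.340), and Inmt, an amine methyltransferase, had 399.9, 372 and 621 against 599, 666 and 921 (0.66 ± 0.21, adjusted p = 0.377). The aldehyde oxidase gene Aox3 was lower, with 157, 49.5 and 89.8 against 16.3, 14.0 and 71.0 (-1.76 ± 0.60, adjusted p = 0.403), as was Aox1, with 247, 213 and 179 against 132, 127 and 202 (-0.49 ± 0.20, adjusted p = 0.466). Ppara, a lipid-sensing nuclear receptor, had 46.4, 51.7 and 95.8 against 144, 89.4 and 99.1 (0.81 ± 0.29, adjusted p = 0.425).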
